A study of Mus musculus with 2 samples.

Results

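A group of 9 genes that mark naive, quiescent T cells was followed from vehicle-treated to Tubastatin A (TSA)-treated Treg cultures. They are Klf2, Klf3, S1pr1, Il7r, Tcf7, Lef1, Satb1, Bach2 and Foxp1, chosen by symbol for their known role, although with earlier results of these data known, and all 9 were found among the 23238 distinct gene symbols of the deposited tables. Naïve CD4+ T cells of wild-type C57BL/6 mice, purified from the spleen and used at 7 to 10 weeks of age, were activated with plate-bound anti-CD3ε and soluble anti-CD28. Both cultures received IL-2, TGF-β1 and antibodies that neutralise IFN-γ and IL-4, for 1 day. The control culture received DMSO, and the other received 10 μM TSA, an inhibitor of the cytoplasmic tubulin deacetylase HDAC6. There was 1 library per condition, so no difference given here has a replicate check, and an effect of TSA cannot be told apart from any other difference between the 2 cultures or library preparations. A naïve sample taken before activation was not analysed here, so the values compare the cultures with each other and not with the starting cells.

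A naïve T cell is kept small, non-dividing and circulating by a set of transcription factors and receptors. FOXO1 maintains the factor KLF2, and KLF2 in turn maintains the sphingosine-1-phosphate receptor S1PR1, which lets the cell leave lymphoid tissue, while the IL-7 receptor gives the survival signal. TCF-1 (encoded by Tcf7), LEF-1, SATB1, BACH2 and FOXP1 hold the naïve program and restrain effector genes. Most of these transcripts fall after T cell receptor stimulation, which shuts off FOXO1 through PI3K and AKT signalling.

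Of the 9 genes, Klf2 had the largest difference, with about 2-fold more transcript in the TSA culture, and S1pr1 came next with a TSA-to-control ratio of 1.78. Bach2, Lef1, Satb1 and Foxp1 were 10.3% to 13.3% higher in the TSA library. Il7r and Tcf7 had values above the control that were within counting error as deposited, though not under every scaling, and Klf3 had nearly the same value in both libraries. No gene of the 9 had a lower value in the TSA library. The median log2 fold change of the 9 was 0.18, against 0.015 over the 12164 genes that had at least 10 reads in at least 1 library (tested genes). The 7 general T cell markers listed to check the cell type, such as Cd3d and Thy1, had a median of 0.19, as large as that of the 9.

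Among the 9 differences, not every rank lay beyond counting error. By value, Klf2 and Klf3, relatives in the Krüppel-like zinc finger family that bind CACCC-type sites, had the largest and the smallest difference. For this reason the 117 bases before the annotated start of each gene in GENCODE are given, with every CACCC on either strand in capitals (GGGTG is the same motif on the other strand). Both are on the plus strand of GRCm38.p6 and were taken from the RefSeq promoter table, at chr8:72318916-72319032 for Klf2 and chr5:64803271-64803387 for Klf3. RefSeq places the start 29 bases (Klf2) and 133 bases (Klf3) further into the gene than GENCODE, and those bases are not shown.
Klf2: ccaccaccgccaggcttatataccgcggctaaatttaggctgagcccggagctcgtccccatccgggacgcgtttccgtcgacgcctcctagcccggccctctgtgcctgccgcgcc
Klf3: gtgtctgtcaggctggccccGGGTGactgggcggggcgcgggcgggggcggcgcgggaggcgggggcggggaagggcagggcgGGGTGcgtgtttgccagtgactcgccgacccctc
The Klf2 stretch holds no match and the Klf3 stretch 2, and 31.0% of the 32851 RefSeq promoters hold at least 1 in the 117 bases before the RefSeq start, a position that differs from that of the 2 stretches shown. Both are rich in G and C, at 67.5% and 79.5%, against a median of 54.7% over those promoters. In the 250 bases before the RefSeq start, CACCC was in 52.0% of all promoters and in 14 of the 18 windows listed for 8 of the 9 genes, belonging to 6 genes. GTAAACA, the core bound by FOXO factors, was in 3.17% of all promoters and in none of the 18, and CTTTGAT, a core bound by TCF and LEF factors, was in 3.21% of all promoters and also in none of the 18. Such matches describe the letters in these windows, and S1pr1 had no window in the table.

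The values behind these statements are read counts from libraries made to read the 3′ ends of polyadenylated transcripts. The libraries held 10845868 reads (control) and 10432287 reads (TSA) on genes. A deposited value is log2 of a normalized read count plus 1. A log2 fold change is the difference of the 2 deposited values, TSA less control, and the ratio is the same quantity on the linear scale (TSA over control). The range given with a ratio is an exact 95% interval from the reads, which sets the 2 libraries against each other rather than the treatments and holds counting error alone. A floor of 3 reads, below which nothing can be told at this depth, was 0.277 RPM (reads per 1000000 reads on genes) with DMSO and 0.288 RPM with TSA, far below all 9 genes. Because this was a bulk culture, fewer cells that express a gene and less of its RNA per cell cannot be told apart.

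KLF2, the factor that keeps T cells quiescent and in circulation, had 1158 reads with DMSO and 2436 with TSA. The deposited log2 values were 10.19 and 11.24, a log2 fold change of 1.06 and a ratio of 2.08 with an interval of 1.94 to 2.24. Klf2 was thus the single gene of the 9 past 2-fold, the threshold of the study, and its interval reached just below it, though with total-read scaling the whole log2 interval (1.027 to 1.23) lay past 2-fold. Across all tested genes 14.7% passed 2-fold, with 11.5% higher and 3.15% lower in the TSA library, so a count of 1 in 9 is near the background. The background differed by level, however. Of the 3962 genes whose normalized count averaged 500 or more, 9 (0.227%) were more than 2-fold higher in the TSA library and 28 more than 2-fold lower, and Klf2 was among the 9. In that class 0.101% of the genes had a higher log2 fold change than Klf2. Below a mean of 500, 1391 of 8202 genes were more than 2-fold higher.

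S1PR1, the receptor through which T cells follow sphingosine-1-phosphate out of the spleen and lymph nodes, is encoded by a target gene of KLF2. S1pr1 had 163 reads with DMSO and 294 with TSA, with deposited log2 values of 7.36 and 8.20. Its ratio was 1.78 with an interval of 1.47 to 2.18, which lay above 1 and held 2. S1pr1 was the gene of the 9 whose difference came closest to that of Klf2, and it was past 1.5-fold together with it. The intervals of S1pr1 and Klf2 overlapped.

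**Figure D1:**
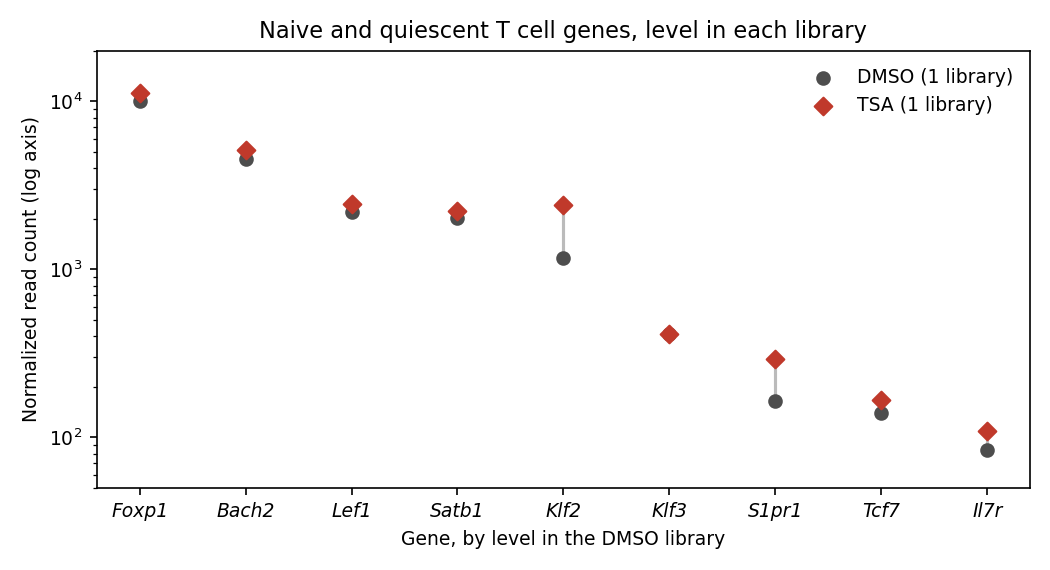
Normalized read count (log axis) of the 9 naive and quiescent T cell genes in the control (DMSO) library and the TSA library, ordered by the level in the control library, with 1 point per library and a line joining the pair. Klf2 (1164 and 2424) and S1pr1 (163.8 and 292.7) show the widest gaps, and the points of Klf3 lie on each other.

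IL-7 receptor alpha chain, the subunit that gives naïve T cells their survival signal from IL-7, is encoded by Il7r, the gene of the 9 with the fewest reads. It had 84 reads with DMSO and 109 with TSA, with deposited log2 values of 6.42 and 6.77. The ratio of 1.28 had an interval of 0.958 to 1.73, which held 1. With total-read scaling the log2 interval was 0.0081 to 0.86 and lay above 0, so whether Il7r differed by more than counting error depended on the scaling.

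TCF-1 and LEF-1 are HMG-box factors that act with β-catenin and with Groucho-type corepressors, and they keep the naïve and memory potential of T cells. Tcf7 had 138 and 167 reads in the control and TSA libraries, with deposited log2 values of 7.13 and 7.38. Its ratio was 1.197 with an interval of 0.951 to 1.51, which held 1, whereas scaling to the total without Rn45s gave a log2 interval of 0.012 to 0.68. Lef1 had 2192 and 2458 reads, with deposited log2 values of 11.11 and 11.26. Its ratio was 1.11 with an interval of 1.048 to 1.18. The ratios of Tcf7 and Lef1 were similar in size, and as deposited that of Lef1, with more reads, lay beyond counting error and that of Tcf7 did not.

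SATB1, an organiser of chromatin that is needed for the T cell program, had 2006 reads with DMSO and 2248 with TSA. The deposited log2 values of Satb1 were 10.98 and 11.13, a ratio of 1.11 with an interval of 1.044 to 1.18. BACH2, a repressor of effector genes that competes with AP-1 factors, had 4493 and 5141 reads. The deposited log2 values of Bach2 were 12.14 and 12.32, a ratio of 1.13 with an interval of 1.088 to 1.18. FOXP1, a forkhead repressor that maintains quiescence and opposes FOXO1 at Il7r, had the most reads of the 9, 10055 and 11205. The deposited log2 values of Foxp1 were 13.30 and 13.44, a ratio of 1.103 with an interval of 1.074 to 1.134. These 3 genes and Lef1 were thus higher in the TSA library by small amounts that exceeded counting error.

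KLF3, a Krüppel-like repressor that recruits CtBP and is a target of other KLF factors, had 407 and 415 reads, with deposited log2 values of 8.68 and 8.69. The ratio of Klf3 was 1.0091, with an interval of 0.879 to 1.16 that did not overlap the interval of Klf2. It did overlap the intervals of Il7r, Tcf7, Lef1, Satb1, Bach2 and Foxp1.

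**Figure D2:**
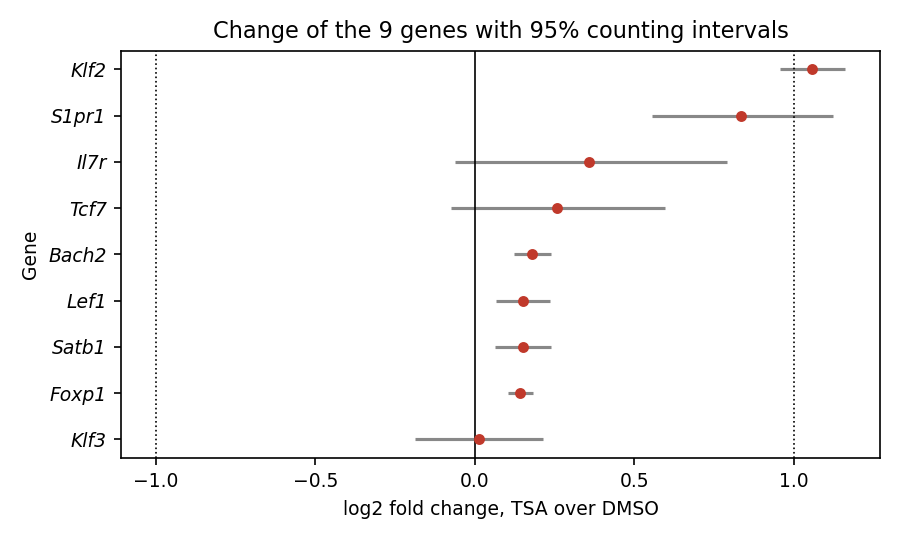
Log2 fold change (TSA over control) of the 9 genes, ordered by size, with points for the difference of the deposited values and bars for the exact 95% counting interval (1 library per condition); the solid line marks no change and the dotted lines 2-fold. Klf2 and S1pr1 stand to the right of the other 7, whose points lie between 0.013 and 0.36.

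In total 6 of the 9 intervals lay above 1 (Klf2, S1pr1, Lef1, Satb1, Bach2 and Foxp1), 3 held 1, and none lay below it. With total-read scaling 7 lay above 1 (Il7r added), and with Rn45s left out of the total 8 (Tcf7 added as well). Among tested genes 28.1% of the intervals lay above 1 and 28% below. An interval narrows as reads increase, so genes of a like level were compared as well. Of the 3962 genes whose normalized count averaged 500 or more, 20.8% had an interval above 1 and the median log2 fold change was -0.11, whereas the 5 genes of the 9 in that class (Klf2, Lef1, Satb1, Bach2 and Foxp1) all had an interval above 1. For the 4 of them other than Klf2, the share of genes in that class with a higher log2 fold change was 14.9% for Bach2, 17.7% for Lef1, 17.8% for Satb1 and 18.6% for Foxp1. For genes under 500 the median log2 fold change was 0.14. All 9 log2 fold changes were above 0, against 51.3% of the tested genes.

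**Figure D3:**
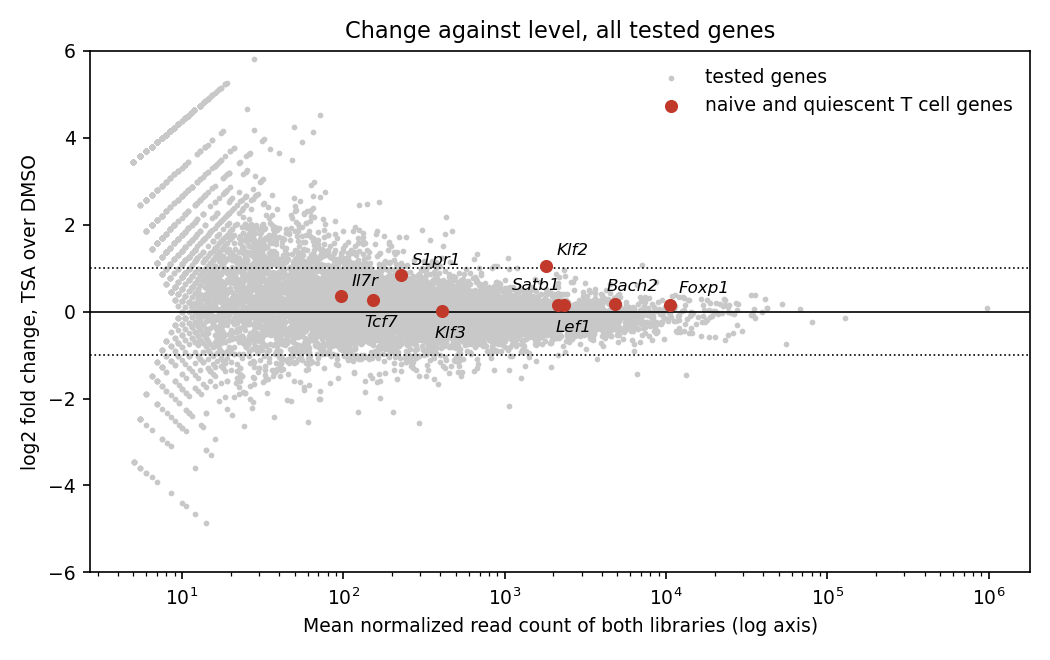
Log2 fold change (TSA over control) of all 12164 tested genes against their mean normalized count (log axis), with 1 grey point per gene, the 9 naive and quiescent T cell genes in red, and dotted lines at 2-fold. The spread is wide at low counts and narrow at high counts, and Klf2 lies at the upper edge of the genes with a similar level.

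With 3′ end counting a transcript gives about 1 read whatever its length, so the levels of different genes can be put in order within a library, although the annotation of the 3′ ends also enters. In the control library the order was Foxp1, Bach2, Lef1, Satb1, Klf2, Klf3, S1pr1, Tcf7 and Il7r, spanning 927 to 7.74 RPM. Each gene differed from the next by more than counting error except S1pr1 and Tcf7, with a ratio of 1.18 (interval 0.936 to 1.49). In the TSA library Klf2 had moved from the fifth to the fourth place, above Satb1 (ratio 1.084, 1.023 to 1.15) and level with Lef1 (ratio of Lef1 to Klf2 1.0090, 0.954 to 1.068), and S1pr1 exceeded Tcf7 (ratio 1.76, 1.45 to 2.14). The 9 genes together took 0.191% of all reads in the control and 0.235% with TSA.

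In the GENCODE M21 annotation of GRCm38 (mm10, the build the submitters name), matched by symbol, all 9 are protein-coding genes. Klf2 is the shortest, with 2.62 kb on chromosome 8 from 72319033 to 72321656, and S1pr1 spans 4.64 kb on chromosome 3 from 115710433 to 115715072. Both have 1 annotated coding transcript and hence 1 annotated 3′ end. Klf3 lies on chromosome 5 from 64803388 to 64832901, Il7r on chromosome 15 from 9505788 to 9530176, Tcf7 on chromosome 11 from 52252371 to 52283014 and Lef1 on chromosome 3 from 131110471 to 131224356. Satb1 lies on chromosome 17 from 51736187 to 51833290, Bach2 on chromosome 4 from 32238804 to 32586108 and Foxp1, the longest with 597.38 kb, on chromosome 6 from 98925338 to 99522721. Foxp1 has 20 coding transcripts with 11 distinct 3′ ends more than 50 bases apart and Satb1 has 10 with 6, and the single deposited value of each gene does not tell them apart. Of the genes that overlap the 9, Bach2os, an antisense RNA at Bach2, was the one with a value of its own, with 28 reads with DMSO and 19 with TSA, few beside the reads of Bach2. Whether reads were counted by strand is not given in the sources used here.

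Of 35 further genes listed for this state, 33 were tested, 20 had an interval above 1, 3 had an interval below 1 and 10 held 1, and their median log2 fold change was 0.24, against 0.015 over all tested genes. Over all tested genes 28.1% of the intervals lay above 1 and 28% below. A log2 fold change above 0 was found for 24 of the 33 and for 51.3% of all tested genes. Past 2-fold were 2 of the 33, against 14.7% of all tested genes, a share that fell to 0.934% where the normalized count averaged 500 or more, as it did for 16 of the 33. They were Rasgrp2, an activator of Rap1 in naïve T cells, from 119 to 314 reads (ratio 2.6, 2.11 to 3.25), and Nsg2, from 216 to 489 reads (2.24, 1.91 to 2.64). Tob1, an antiproliferative gene of resting T cells, had 41 and 79 reads (1.89, 1.29 to 2.85). Txnip, a brake on glucose uptake, and Cdkn1b, which encodes the cell cycle inhibitor p27, were named here after their values were seen and had ratios of 1.63 (1.39 to 1.93) and 1.6 (1.38 to 1.85).

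Not all listed genes of the quiescent state were higher in the TSA library. Treml2 went from 1083 to 566 reads, a ratio of 0.518 (0.467 to 0.573). Slfn2, whose loss breaks T cell quiescence in mice, went from 4126 to 2709 reads, a ratio of 0.65 (0.619 to 0.683). Il6ra, a receptor chain that is shed after activation, went from 357 to 254 reads, a ratio of 0.705 (0.597 to 0.83). Foxo1, the factor upstream of Klf2, Il7r and S1pr1 and named here after its value was seen, had 2157 and 2429 reads and a ratio of 1.11 (1.052 to 1.18), smaller than that of Klf2.

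**Figure D4:**
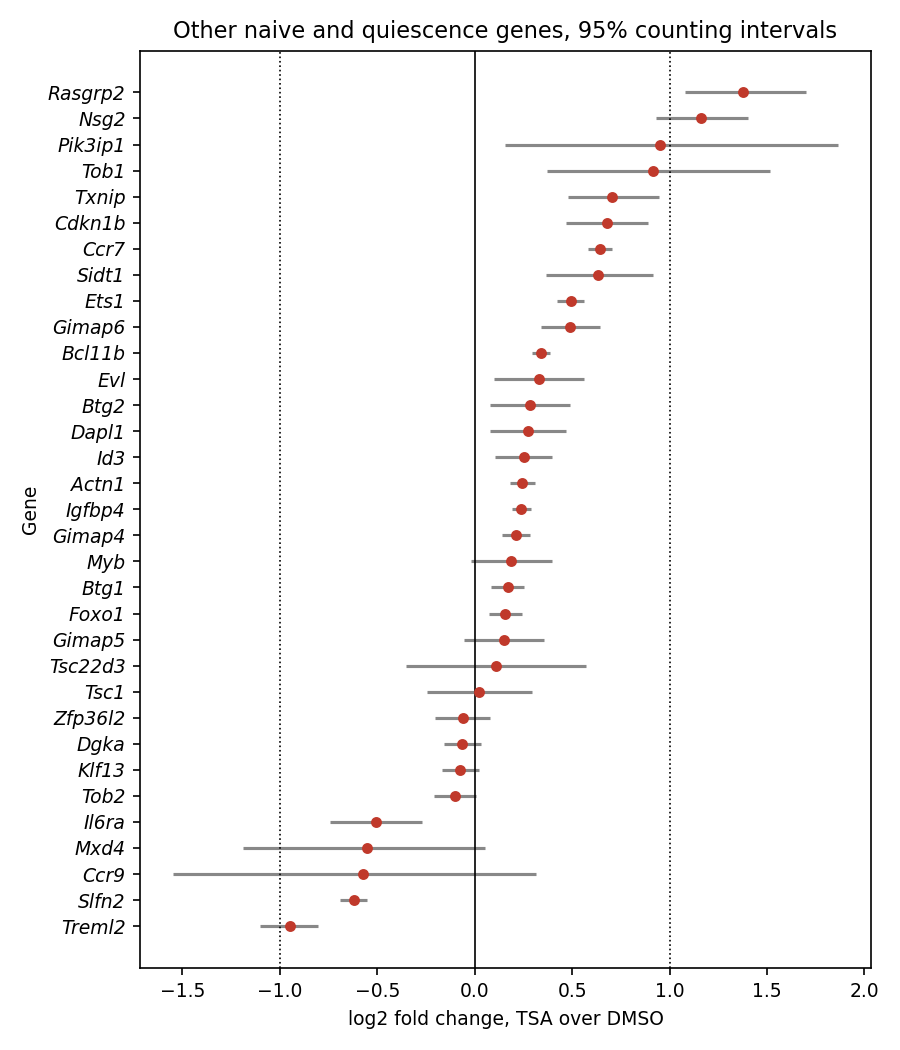
Log2 fold change (TSA over control) of the 33 tested genes among the further genes of the naïve and quiescent state, with points for the difference of the deposited values, bars for the exact 95% counting interval (1 library per condition), a solid line at no change and dotted lines at 2-fold. Rasgrp2 and Nsg2 lie past 2-fold, and Treml2, Slfn2 and Il6ra have intervals below no change.

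Around S1pr1, the genes for egress and homing were compared as a group of 17 matched genes, of which 14 were tested. S1pr1 included, 7 had an interval above 1, 2 below and 5 held 1, against 28.1% above and 28% below over all tested genes. The median log2 fold change was 0.26, against 0.015. Without S1pr1, 6 of 13 intervals lay above 1 and 2 below, and the median was 0.18. S1pr2, a receptor of the same family that restrains migration, had 75 and 140 reads, a ratio of 1.84 (1.39 to 2.48), and S1pr4 had 318 and 444 reads, a ratio of 1.38 (1.19 to 1.6). The intervals of S1pr1 and S1pr2 overlapped, so their differences could not be told apart. Ccr7, the receptor for entry into lymph nodes and also among the further naïve genes above, went from 3484 to 5494 reads, a ratio of 1.56 (1.5 to 1.63). Sphk1, a kinase that makes sphingosine-1-phosphate, was lower by more than 2-fold, with 39 and 10 reads (0.272, 0.113 to 0.518). Cd69, an early activation gene whose product pulls S1PR1 from the cell surface, had 977 and 893 reads, a ratio of 0.905 (0.826 to 0.992) whose interval held 1 under 4 of the 5 scalings tried. Sphk2, the other sphingosine kinase, had a ratio of 0.891 (0.779 to 1.018), and Adrbk1, the kinase GRK2 that desensitises S1PR1, one of 0.966 (0.902 to 1.034), and both intervals held 1.

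Of the 17 genes of the Krüppel-like family 14 were tested, and 9 of these, Klf2 and Klf3 included, had at least 10 reads in both libraries. Among the 9, Klf2 was the single gene past 2-fold, and Klf2 and Klf9 had an interval above 1 and Klf6 and Klf16 one below. Of the 10909 genes with as many reads in both libraries 6.85% passed 2-fold, 24.2% had an interval above 1 and 30.1% below, so these counts of the family were near the background. The other 5, Klf5, Klf8, Klf11, Klf12 and Klf14, had few reads, and each was tested through its reads in a single library (control for Klf11, TSA for the rest), which fixed the direction of its difference. Klf6, induced by activation in many cell types, went the other way from Klf2, with 1140 and 684 reads and a ratio of 0.595 (0.54 to 0.654). Klf16 had 731 and 513 reads, a ratio of 0.695 (0.62 to 0.779), and Klf9 had 387 and 556 reads, a ratio of 1.42 (1.25 to 1.62). Klf13, the family gene with the most reads after Klf2 in the TSA library, had 1818 and 1744 reads and a ratio of 0.95 (0.889 to 1.015), whose direction turned when the reads were scaled to the total without Rn45s. Besides Klf2, Klf14 passed 2-fold with 4 and 10 reads (2.18, 0.714 to 10.8, which holds 1), and Klf12 with 0 reads with DMSO and 10 with TSA, which is at least 3.3-fold higher with the control set at 3 reads, though its interval reached down to 2.22.

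Tcf7 and Lef1 were next set beside their paralogs and partners. Of the 18 tested genes of this group, Tcf7 and Lef1 included, 11 had an interval above 1, 3 below and 4 held 1 (28.1% above and 28% below over all tested genes), with a median log2 fold change of 0.20 against 0.015. For the 17 with at least 10 reads in both libraries the counts were 10 above and 3 below, and the median was 0.19. Tcf7l2, tested through its TSA reads alone, had 5 reads with DMSO and 139 with TSA, a ratio of 23.1 (11.5 to 86.1), and Tcf7l1 had 15 and 93 reads, a ratio of 5.82 (3.54 to 11.4). In the TSA library the reads of Tcf7l2 came near those of Tcf7, and both stayed far below those of Lef1. Axin2, a common target of β-catenin with TCF and LEF factors, had 50 and 78 reads, a ratio of 1.53 (1.069 to 2.25). At the other end of the 18 tested genes of this group were Axin1 (0.808, 0.713 to 0.917), Pygo2 (0.872, 0.784 to 0.97) and Ctbp1 (0.899, 0.838 to 0.964). With total-read scaling 1 of the 18 intervals lay below 1, in place of 3. Among tested genes the TSA library had an excess of higher values at low counts, as given above for genes under 500.

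**Figure D5:**
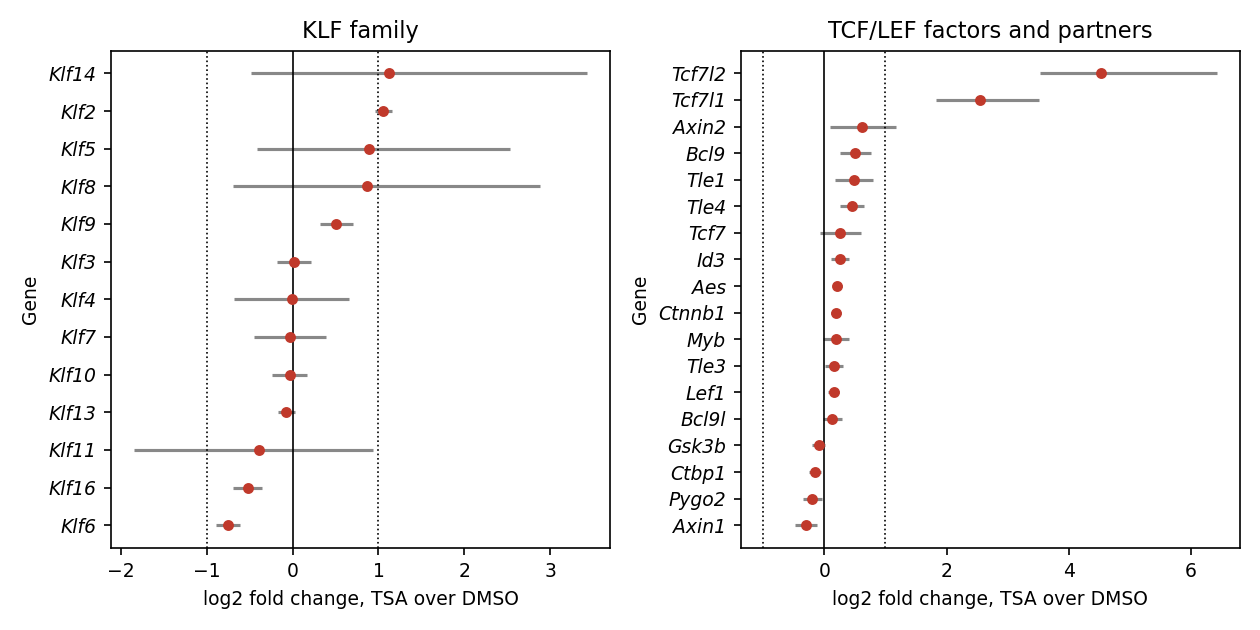
Log2 fold change (TSA over control) of the tested genes of the Krüppel-like family (left) and of the TCF and LEF factors with their partners (right), with points for the difference of the deposited values, bars for the exact 95% counting interval (1 library per condition), a solid line at no change and dotted lines at 2-fold. Klf12, without a read in the control library, is left out; Klf2 and Klf6 lie on opposite sides of no change, and Tcf7l2 (4.53) and Tcf7l1 (2.54) lie far to the right of Tcf7 and Lef1.

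In the pathway of the IL-7 receptor, 16 genes were tested, 8 had an interval above 1, 4 below and 4, among them Il7r, held 1, at a median log2 fold change of 0.16 against 0.015 over all tested genes. Of all tested genes 28.1% lay above and 28% below. The 12 genes of the pathway whose normalized count averaged 500 or more had 7 intervals above 1 and 3 below, in a class with 20.8% above and 48.5% below. None of the 16 passed 2-fold, as 14.7% of all tested genes did. Cish, a feedback inhibitor induced by STAT5, had 4210 and 5256 reads, a ratio of 1.24 (1.19 to 1.29), and Socs3, another feedback inhibitor, had a ratio of 1.21 (1.064 to 1.38). Gabpa, a factor that maintains Il7r, had a ratio of 0.755 (0.632 to 0.9), Jak3 of 0.791 (0.698 to 0.895) and Mcl1, a survival gene, of 0.806 (0.765 to 0.849).

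Of 8 relatives and partners of Satb1, Bach2 and Foxp1, 7 were tested, at a median log2 fold change of 0.017, near the 0.015 over all tested genes. An interval above 1 was found for 1 of them and below 1 for 2, against 28.1% and 28% of all tested genes. None of the 7 passed 2-fold, where 14.7% of all tested genes did. Foxp3, the Treg lineage factor of the same family as Foxp1, had 1633 and 965 reads, a ratio of 0.586 (0.54 to 0.634), and Foxp4 had 704 and 561 reads, a ratio of 0.789 (0.705 to 0.883), whereas the interval of Foxp1 lay above 1. The intervals of these FOXP genes did not overlap that of Foxp1. Bach1, the relative of Bach2, had 127 and 153 reads and an interval of 0.937 to 1.52, and Mafg, a small MAF partner of BACH factors, had a ratio of 1.35 (1.21 to 1.5). Mafk, another partner, had 412 and 421 reads and an interval of 0.881 to 1.16.

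Genes that mark exit from the naïve state were set beside these. Of 18 activation genes, all tested, 11 had an interval below 1, 3 above and 4 held 1 (9 below and 5 above with total-read scaling), and the median log2 fold change was -0.18 (-0.11 with total-read scaling). Over all tested genes 28% of the intervals lay below 1, and 48.5% of those of genes whose normalized count averaged 500 or more, a class with a median of -0.11 that held 16 of the 18 activation genes, 10 of them with an interval below 1. Mki67, a marker of dividing cells, was more than 2-fold lower (0.348, 0.317 to 0.38), followed by the amino acid transporter gene Slc7a5 (0.609, 0.551 to 0.673) and the transferrin receptor gene Tfrc (0.675, 0.647 to 0.704). Irf4, induced by T cell receptor signals, was higher (1.59, 1.55 to 1.64), as were Cd40lg (1.33, 1.12 to 1.58) and Ccnd2 (1.15, 1.13 to 1.17). The part of cell division in the values of Klf2 and S1pr1 was not tested.

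The cultures carried the markers of CD4+ T cells, and all 7 T cell markers, Cd3e and Cd4 among them, were tested, with summed levels of 1301 RPM (control) and 1556 RPM (TSA). Of the 7, all with a normalized count that averaged 500 or more, 4 had an interval above 1 and 2, Cd3e and Cd5, below, where that class of genes had 20.8% above and 48.5% below. The part of this in the values of the 9 genes was not tested. B cells, which also express Klf2, S1pr1, Bach2 and Foxp1, left few reads: 8 matched markers summed to 4.61 and 7.96 RPM, most of them from Cr2, with 0 reads of Pax5 in both libraries. Cd79b, tested through its control reads alone, was more than 2-fold lower, with 11 and 4 reads (0.413, 0.0836 to 1.22, which held 1). Markers of myeloid cells summed to 81.4 and 82.7 RPM, of which Cst3 gave 742 of the reads with DMSO and 757 with TSA. Fcer1g had 62 and 50 reads, Cd68 32 and 19, Lyz2 6 and 10, and S100a9 0 in both. Markers of CD8+ T and NK cells summed to 96.5 and 116.1 RPM, of which Nkg7 gave 889 and 1043 reads. Cd8b1 had 65 and 77 reads, Klrd1 47 and 40, Eomes 30 and 40, and Cd8a 15 and 10. Markers of erythroid cells summed to 3.96 and 5.56 RPM. Among them Hbb-bs, tested through its TSA reads alone, was more than 2-fold higher, with 4 and 17 reads (3.57, 1.37 to 17.2).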

How the data were processed

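Total RNA from 1 culture per condition was made into QuantSeq 3′ end libraries and sequenced by the authors as single-end 75-nt reads. The submitters' processing notes name Bowtie2, bedtools and mm10, and the paper names ExDEGA. Versions, annotation and normalization are not given in the sources used here. Values were deposited as log2 numbers (log2 of a normalized count plus 1), as found from the values: back-transformed, low values fell on steps of 1.005 (control) and 0.995 (TSA) per read. Of the genes with 1 to 300 reads, 99.7% and 99.8% lay within 0.1 of a whole read. For the deepest gene, rounding of the deposited value leaves an error of about 3.9 reads. In the control library 1940 genes without a read were listed just above 0 and read as 0 reads.

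Reads were used for exact Clopper-Pearson 95% intervals and the 3-read floor; PCR copies could not be told apart. A gene was tested when either library held 10 reads or more of it, past 2-fold was the call, and no p-value was computed. Fold changes hold the pseudocount of 1, the intervals do not. The tools were scipy 1.17.1, matplotlib 3.10.9, numpy 2.4.6 and pandas 2.3.3 on Python 3.11.15, and the steps were tested on simulated data. Alternatives covered scaling, pseudocount, filter and threshold.

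The 9 genes and the other gene lists were chosen with earlier results of these data known. Some lists share genes, such as Ccr7 and Foxo1, so the counts of different lists are not separate observations. Some genes of these lists are not reported here and were left out of the counts. Named are the 9 genes and, of each list, the genes past 2-fold, the 3 highest and 3 lowest log2 fold changes at a mean normalized count of at least 50, and the paralogs with the most reads, with examples given here; any other gene is marked. The T cell, B cell, CD8 and NK, myeloid and erythroid lists served to check the cell type, and their tested genes past 2-fold and examples are named.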

Additional observations from a re-analysis of the deposited data

How the results depend on the processing

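No paired analysis was possible because each condition has a single library, which also means that leaving out replicates could not be tried. All 9 genes kept a log2 fold change above 0, and Klf2 (1.056 to 1.14) stayed past 2-fold and the other 8 within it, under the 5 scalings and 2 pseudocounts tried. The median of the 9 was 0.2504 with total-read scaling and 0.2648 when Rn45s was left out of the total, since both scalings moved the median of all genes by 0.070 and 0.084. With a 1.5-fold threshold 2 of the 9, 10 of the further naïve and quiescence genes (8 higher and 2 lower) and 3293 of all tested genes were counted. With the whole interval beyond 2-fold the counts were 0 of the 9, 1 (Rasgrp2) and 703, although the interval of Klf2 also cleared 2-fold with total reads (log2 1.027 to 1.23) and without Rn45s (1.042 to 1.25). All genes past 2-fold numbered 4017 without a filter, 747 with at least 10 reads in both libraries and 419 when the normalized count averaged 50 or more, against 1783. Their share of higher calls, 78.5%, was 70.1%, 70.1% and 66.3% under those filters and 69.2% at 1.5-fold. Depth limits Il7r, Tcf7 and the rare paralogs most.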

Other observations

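Klf2 was 1 of 9 genes that were more than 2-fold higher in the TSA library at a mean normalized count of at least 500, and the other 8, named here after their values were seen, are given as its company at that level. Nfic, a transcription factor of the nuclear factor I family, went from 381 to 971 reads (log2 fold change 1.33), and Ckb, the brain-type creatine kinase, from 617 to 1478 reads (1.24). Genes of the Ly6 family on lymphocytes followed, with Ly6c1 from 388 to 901 reads (1.2) and Ly6a, which encodes Sca-1, from 4537 to 9647 reads (1.07). Ly6c1 shares much of its sequence with a neighbouring copy, so its value is uncertain. Aldh2, a mitochondrial aldehyde dehydrogenase, went from 577 to 1212 reads (1.055) and Neat1, the noncoding RNA of nuclear paraspeckles, from 556 to 1163 reads (1.049). H2-Q9, a nonclassical MHC class I gene with near-identical copies and hence an uncertain value, went from 787 to 1605 reads (1.013), and Sla, an adaptor that dampens T cell receptor signalling, from 556 to 1127 reads (1.003). Their intervals cover counting error only and no explanation was tested.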
